A study of Mus musculus with 8 samples.

Results

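The 10 genes described here are the RNA-binding proteins and growth regulators of the Lin28-let-7 axis and the Myc genes that accompany it: Lin28a, Lin28b, Trim71, Myc, Mycn, Hmga1, Hmga2, Igf2bp1, Igf2bp2 and Igf2bp3. They were taken by symbol from the gene tables, where each matched 1 of the 39009 entries, and all 10 were among the 17011 genes that reached 1 FPKM in at least 1 library. The members, and the gene lists read below, were chosen with earlier results of these data known. Counts of them called are thus a description and not a test. The question put to the 10 genes was how genes active in fetal and embryonic growth stand in fetal source cells and in the pluripotent lines made from them. FPKM is the number of fragments scaled to transcript length and to all mapped fragments, so levels of different genes can be set side by side per length.

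RNA of 8 mouse libraries was sequenced, in 5 groups. Lines of chemically induced pluripotent stem cells (CiPSC, made from somatic cells with small molecules, which the labels do not list) came from 1 of 2 fetal populations, and each line gave 1 library: lines 1, 2 and 3 of neural origin (NSC-CiPSC) and lines 10 and 13 of intestinal origin (IEC-CiPSC). Their fetal sources were taken at E13.5 and gave 1 library each, NSC from cultured neural stem cells at P2 and IEC from primary epithelium of the small intestine, and the last library was of the embryonic stem cell line R1 (ESC). The labels give the NSC and IEC libraries and the lines made from them the strain C57BL/6J-Tg(GOFGFP)11Imeg/RbrcxICR, a cross that carries a GFP transgene, with the number before Imeg running by 1 per library from 11 to 17, and give ESC the strain 129X1 x 129S1. Strain therefore cannot be told apart from the contrast of any line with ESC, and nothing in the labels tells whether lines of 1 origin go back to separate embryos or clones. NSC, IEC and ESC have no replicate, so the p-values below rest on the spread between lines of the same origin, which may be partly technical.

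The libraries held 8.82 M to 10.1 M fragments (an estimate made from the intervals within each library), 12547 to 14051 genes reached 1 FPKM, and mitochondrial transcripts held 1.94% to 11.6% of the summed FPKM. All 8 pluripotency markers stood at 10 FPKM or more in the 6 pluripotent libraries, and none did in NSC or IEC. NSC held all 8 neural markers at that level, with a summed level of 6469 FPKM. The library labelled IEC held 2 of 8 intestinal epithelium markers at that level, with a median of 0.913 FPKM, and 6 of 7 general epithelium markers. It also held 8 of 8 mesenchyme markers (summed 6817 FPKM), 6 of 6 of smooth muscle, 5 of 6 of leukocytes, 6 of 6 of liver (summed 6434 FPKM) and 5 of 6 of pancreas. In the IEC-CiPSC lines the mesenchyme sum was 34.4 and 38.4 FPKM, the 6 liver markers summed to 4.89 and 5.39 FPKM, and all 6 pancreas markers were listed at 0. Every change between IEC and its lines is therefore a change from this mixture, whose part in it was not tested, and in such bulk RNA fewer expressing cells cannot be told apart from less RNA per cell.

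Lin28a and Lin28b are RNA-binding proteins that hold back the maturation of let-7 microRNAs by binding their precursors, and let-7 in turn represses mRNAs whose 3′ UTRs pair with its seed. The mRNAs known as let-7 targets include Lin28a and Lin28b themselves, Trim71, the chromatin proteins Hmga1 and Hmga2 and the Igf2bp mRNA-binding proteins, and Lin28 and these genes are known as oncofetal, being active in embryos, switched off in most adult tissues and active again in tumours. Myc and Mycn encode related transcription factors that drive growth and ribosome production, and both are also known as let-7 targets in some settings.

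The let-7 sequences are shown because the seed is what the members' 3′ UTRs were searched for. All 9 mature let-7 and miR-98 names of the 5p arm in the RefSeq table (GRCm38.p6) shared 1 seed, bases 2 to 8, written in capitals. They differ outside it, as these 4 show.
let-7a: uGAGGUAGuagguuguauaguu
let-7d: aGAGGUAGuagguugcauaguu
let-7e: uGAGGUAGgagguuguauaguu
let-7g: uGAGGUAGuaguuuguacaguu
The genes lie on chromosomes 13 (let-7a-1, 48538239 to 48538260, minus strand, and let-7d), 17 (let-7e) and 9 (let-7g, 106178846 to 106178867, plus strand). Mature microRNAs are too short for these libraries: the files hold 10 hairpin entries of the family, and all 10 were listed at 0 in every library. Let-7 itself was thus not measured.

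The match to the seed, CTACCTC, was searched on the transcript strand of 1 annotated 3′ UTR per gene, the longest in GENCODE M21. It stood in 8 of the 10 members and in 9.02% of the 21021 genes with a 3′ UTR. The members belong to an axis known for let-7 targets, so this count is a description and not a test. The UTRs of the 8 members with a match, 1183 bases or more, are longer than the median of 961, and longer UTRs held a match more often: of UTRs as long as that of Trim71 (5512 bases, within 0.8 to 1.25 times), 29.9% held a match, and 0.479% held 4 or more. Lin28b, Trim71, Hmga2 and Igf2bp1 each had 4 matches, Lin28a had 2, and Hmga1, Igf2bp2 and Igf2bp3 had 1. Of UTRs about as long as those of Hmga1, Igf2bp2 and Igf2bp3, 8.24%, 12.1% and 13.3% held a match. Myc (466 bases) and Mycn (913 bases) had none, which says only that these letters are not in these UTRs. The first match of each gene is shown as part of a 22-base window, 5′ to 3′, with the match in capitals.
Lin28a: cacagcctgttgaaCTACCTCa
Lin28b: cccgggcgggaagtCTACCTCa
Trim71: acattgcctaagtcCTACCTCa
Hmga1: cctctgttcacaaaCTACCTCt
Hmga2: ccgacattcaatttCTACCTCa
Igf2bp1: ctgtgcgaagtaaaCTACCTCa
Igf2bp2: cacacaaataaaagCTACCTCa
Igf2bp3: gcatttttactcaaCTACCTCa
On GRCm38 (mm10) these windows are chr4:134005189-134005210 for Lin28a, chr10:45381022-45381043 for Lin28b, chr9:114512472-114512493 for Trim71 and chr17:27563278-27563299 for Hmga1. Those of Hmga2, Igf2bp1, Igf2bp2 and Igf2bp3 are chr10:120364224-120364245, chr11:95961778-95961799, chr16:22059473-22059494 and chr6:49086787-49086808. All lie on the minus strand except that of Hmga1, and all are exonic, in the 3′ UTR of a protein-coding gene. An A after the match, a base known to favour repression, followed all 4 matches of Trim71, 3 of 4 in Igf2bp1, both in Lin28a, 1 of 4 in Lin28b and in Hmga2, and none in Hmga1.

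**Figure D1:**
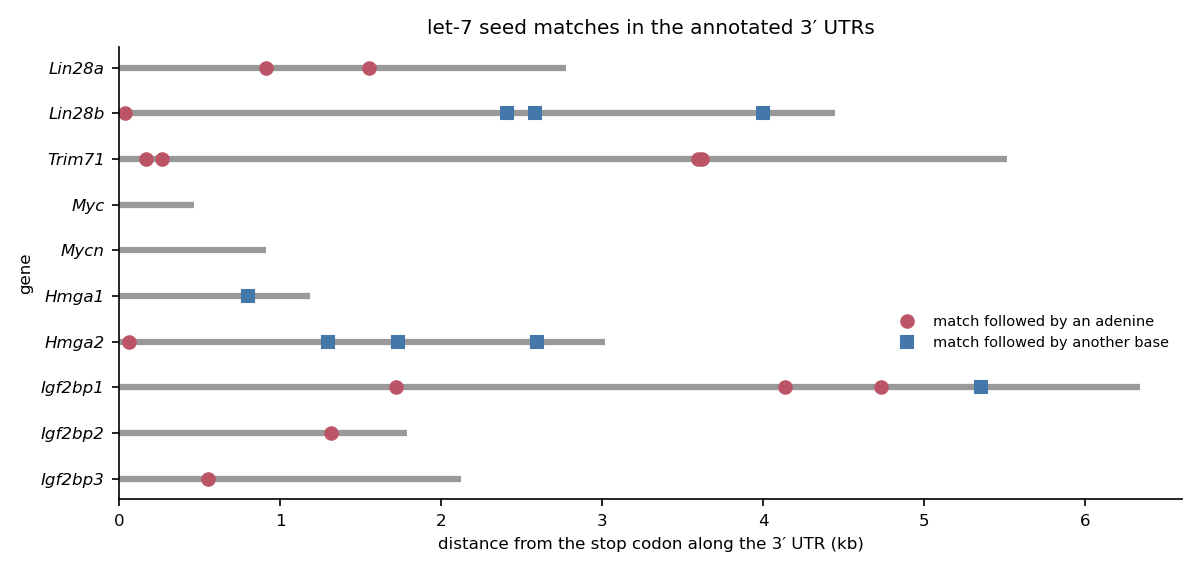
Seed matches along the 3′ UTR of each gene, in kb from the stop codon; each line is 1 UTR and each mark a match to the let-7 seed, told apart by whether an A follows. The 4 genes with 4 matches have UTRs of 3014 to 6337 bases, and Myc and Mycn, with 466 and 913 bases, have no match.

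In both routes from fetal cells to pluripotent lines the same 6 genes rose and none fell: Lin28a, Lin28b, Trim71, Mycn, Hmga1 and Igf2bp1. In NSC-CiPSC against NSC the 6 of 10 called genes stand beside 39.0% of all genes tested called in either direction, 18.3% higher and 20.7% lower. In IEC-CiPSC against IEC they stand beside 45.3% in either direction, 19.1% higher and 26.2% lower. A call here needs both a limma p, adjusted over all genes tested, under 0.05 and a change of at least 2-fold. Lin28a, Lin28b and Trim71 were under 1 FPKM in both fetal libraries. They passed the filter on low levels only through pluripotent libraries and could not be called lower on either route. Mycn and Igf2bp1, under 1 FPKM in NSC, could not be called lower on the neural route. For these genes the direction of a call was thus fixed in advance. Over the 10 members the median log2 change was 2.69 on the neural route and 2.53 on the intestinal route, against 0.03 and -0.03 over all genes tested. Myc, Hmga2, Igf2bp2 and Igf2bp3 were not called in either route.

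**Figure D2:**
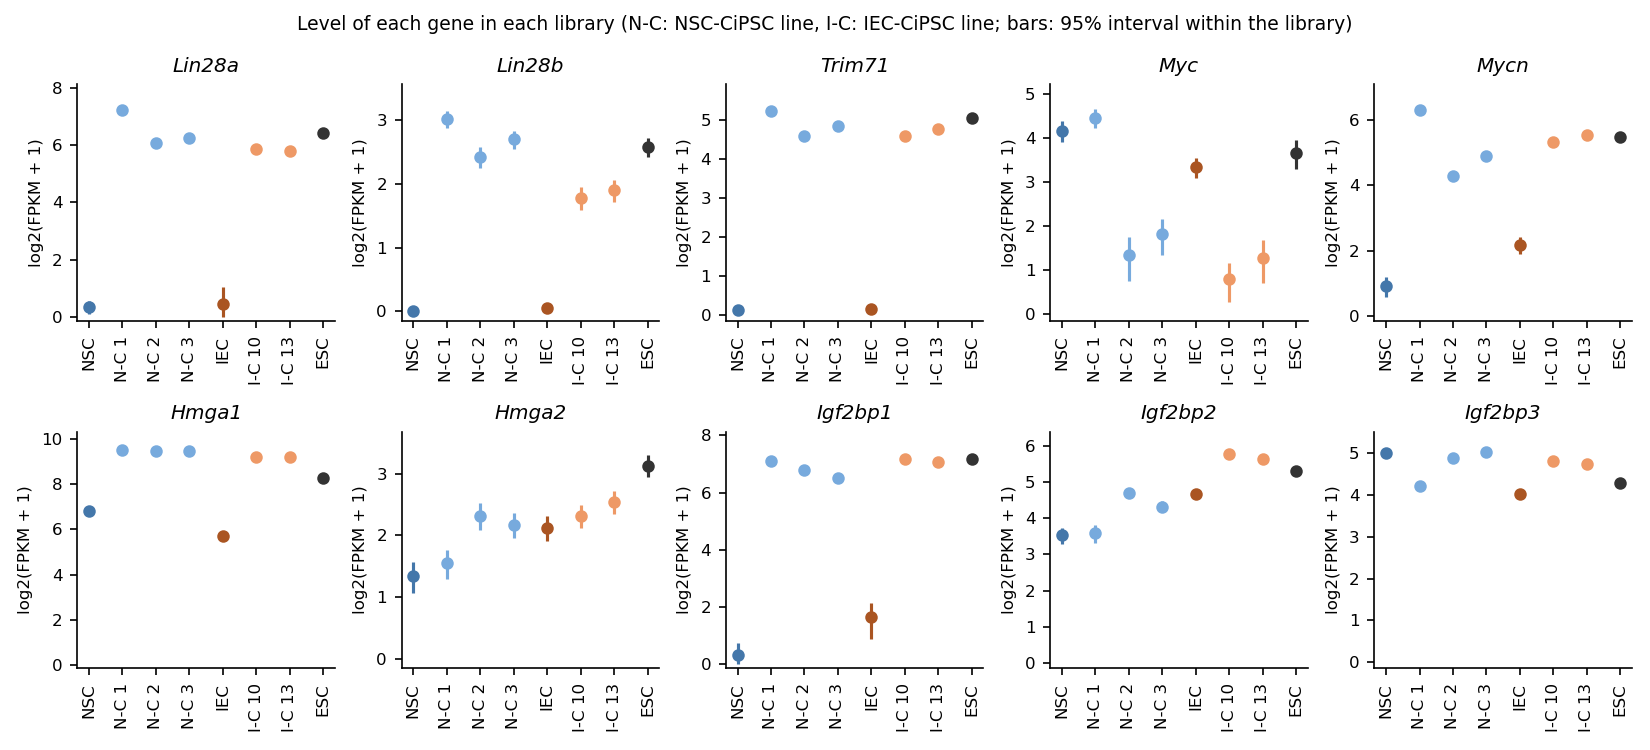
Level of each gene in each library as log2(FPKM + 1), with the 95% interval within the library as bars; N-C and I-C are the lines from NSC and IEC. Lin28a, Lin28b and Trim71 lie near 0 in NSC and IEC and higher in all 6 pluripotent libraries. Igf2bp1 lies near 0 in NSC, at 2.13 FPKM in IEC, and far higher in all 6 pluripotent libraries. Myc is higher in NSC, NSC-CiPSC line 1, IEC and ESC than in the other lines.

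Lin28a, which binds let-7 precursors and marks them for decay, was nearly silent in both fetal populations. NSC held 0.276 FPKM (interval within the library 0.0800 to 0.472) and IEC 0.349 (0 to 1.04). In the lines from NSC it stood at 149.7, 67.1 and 75.7 FPKM, in those from IEC at 57.8 and 54.6, and in ESC at 86.2. Every pluripotent library was thus above both fetal ones, and line 1 was the highest of all. The log2 change, on the log2(FPKM + 1) scale that understates the change of genes with low levels, was 6.18 ± 0.50 (SE, n = 3 lines against 1 library, limma adjusted p = 0.00146) on the neural route. On the intestinal route it was 5.40 ± 0.53 (n = 2 against 1, adjusted p = 0.00191).

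Lin28b, its paralogue, followed the same order at a far lower level. It was listed at 0 in NSC and at 0.0360 FPKM in IEC, where the interval implies 2.00 fragments. The lines from NSC held 7.02, 4.32 and 5.47 FPKM, those from IEC 2.43 and 2.72, and ESC 4.97. The 3 lines from NSC thus did not overlap the 2 from IEC. Both routes were called (limma adjusted p = 0.00225 and 0.00722). No fold is given against the library at 0, and with a pseudocount of 5 in place of 1 the intestinal change fell under 2-fold (log2 0.59). Lin28a made up 93.3% to 96.0% of the summed level of the pair in the 6 pluripotent libraries.

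Trim71, a ubiquitin ligase and mRNA repressor that is a classical let-7 target, was the most even of the group among pluripotent libraries. Its levels of 0.0997 FPKM in NSC and 0.113 in IEC rest on 7.93 and 9.86 implied fragments. In the lines it reached 36.0, 22.7 and 27.4 FPKM (from NSC) and 22.8 and 25.9 (from IEC), with 31.8 in ESC. Fetal and pluripotent libraries were far apart, and the lines of both origins overlapped. The log2 change was 4.73 ± 0.28 (adjusted p = 0.000688) and 4.51 ± 0.30 (adjusted p = 0.000622) on the neural and the intestinal route.

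Mycn rose on both routes, while Myc was not called on either. Mycn (chromosome 12, 12936096 to 12941914, mm10) had 0.904 FPKM in NSC and 3.54 in IEC. The level was 77.3, 18.6 and 28.5 FPKM in the lines from NSC, 39.4 and 46.0 in those from IEC and 43.6 in ESC. Every pluripotent library was above both fetal ones, but line 1 was at least 2-fold above lines 2 and 3. Mycn rose by 4.23 ± 0.83 on the log2 scale (adjusted p = 0.0159) on the neural route and by 3.26 ± 0.89 (adjusted p = 0.0355) on the intestinal one. The intestinal call is lost with a pseudocount of 5 (adjusted p = 0.0566), with no filter on low levels (0.0542), and without NSC-CiPSC line 3 (0.0763), IEC-CiPSC line 10 (0.111) or line 13 (0.126).

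Myc (chromosome 15, 61985391 to 61990374, mm10) was high in the fetal cells: 16.9 FPKM in NSC and 9.12 in IEC. Among the lines from NSC, line 1 held 20.97 FPKM, while lines 2 and 3 held 1.54 and 2.53. Those from IEC held 0.740 and 1.44, and ESC held 11.7. Line 1 was thus above NSC and ESC, and the other 4 lines were below both fetal libraries and ESC, with 8.18 to 26.6 implied fragments each. No comparison called Myc: its log2 change was -1.62 ± 1.37 (limma adjusted p = 0.374) on the neural route and -2.29 ± 1.45 (adjusted p = 0.240) on the intestinal one, with 95% intervals of -5.39 to 2.15 and -6.29 to 1.70. Without line 1 the neural change was -2.58 (adjusted p = 0.0122), and the intestinal one, unchanged in size, had an adjusted p of 0.0141, since the spread of line 1 enters the shared error. Of the summed level of the pair, Mycn made up 5.09% in NSC and 27.9% in IEC. It made up 78.7%, 92.3% and 91.9% in the lines from NSC, 98.2% and 97.0% in those from IEC and 78.8% in ESC.

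Hmga1, an AT-hook protein that shapes chromatin and is abundant in embryonic and cancer cells, was the most abundant member in every library. It stood at 111 FPKM in NSC and 51.3 in IEC, at 724, 703 and 709 in the lines from NSC, at 596 and 587 in those from IEC, and at 305 in ESC. The groups did not overlap, and all 5 lines were above ESC. The rise was 2.67 ± 0.05 on the log2 scale (adjusted p = 4.28e-05) on the neural route and 3.50 ± 0.06 (adjusted p = 8.11e-06) on the intestinal one. An antisense gene, AI413582, overlaps Hmga1 and reached at most 38.9 FPKM, and neither the use of strand in the counting nor its handling of fragments that align to several places is given in the sources used here.

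Hmga2, the other AT-hook protein and a well known let-7 target, stayed low throughout. It stood at 1.53 FPKM in NSC, 1.93, 3.99 and 3.52 in its lines, 3.37 in IEC, 3.98 and 4.84 in its lines and 7.75 in ESC. ESC was the highest, and each line was above its own source library. All lines but NSC-CiPSC line 1 were above both fetal libraries. The log2 change was 0.68 ± 0.36 (adjusted p = 0.183) on the neural route and 0.30 ± 0.38 (adjusted p = 0.530) on the intestinal one. The 95% intervals were -0.31 to 1.67 and -0.74 to 1.35, so changes of up to about these sizes are not excluded. Hmga1 made up 93.8% or more of the summed level of the pair in all 8 libraries.

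The Igf2bp genes encode proteins that bind and protect growth-related mRNAs, Igf2 mRNA among them. By FPKM, the family changed its leading member. Igf2bp1 had 0.239 FPKM in NSC (interval within the library 0 to 0.676) and 2.13 in IEC (0.830 to 3.42). It reached 137, 109 and 89.3 FPKM in the lines from NSC, 143 and 133 in those from IEC and 144 in ESC. The pluripotent libraries lay close together and far above the fetal ones. The rise was 6.49 ± 0.26 (adjusted p = 0.000257) on the neural route and 5.47 ± 0.27 (adjusted p = 0.000273) on the intestinal one.

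Igf2bp2 stood at 10.5 FPKM in NSC and at 11.0, 24.9 and 18.9 in its lines, at 24.6 in IEC and at 53.7 and 48.3 in its lines, and at 38.3 in ESC. Line 1 was level with NSC, and both lines from IEC were above every line from NSC. Its change was 0.68 ± 0.46 (adjusted p = 0.281) and 1.02 ± 0.49 (adjusted p = 0.144), and without NSC-CiPSC line 1 the intestinal change, of the same size, was called (adjusted p = 0.0262). Igf2bp3 was present everywhere, at 31.2 FPKM in NSC, 17.7, 28.5 and 31.6 in its lines, 15.2 in IEC, 27.1 and 25.9 in its lines, and 18.6 in ESC. It overlapped between NSC and its lines and was higher in both lines from IEC than in IEC, with changes of -0.30 ± 0.35 (adjusted p = 0.524) and 0.76 ± 0.37 (adjusted p = 0.150). Malsu1, which overlaps Igf2bp3 on the other strand, reached 44.3 FPKM.

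Set together, the 3 Igf2bp genes summed to 41.9 FPKM in NSC and in IEC alike. Igf2bp3 made up 74.4% of that in NSC and Igf2bp2 58.6% in IEC. In the pluripotent libraries the sum was 140 to 224 FPKM, and Igf2bp1 led in all 6, with 82.7%, 67.0% and 63.9% in the lines from NSC, 63.9% and 64.1% in those from IEC and 71.7% in ESC. By implied fragments, which may be too low, Igf2bp1 was above Igf2bp3 only in NSC-CiPSC line 1 among these (867 against 756). In NSC-CiPSC line 2 it had 455 against 1104. The lead of Igf2bp1 is thus one of FPKM, which is scaled to transcript length.

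**Figure D3:**
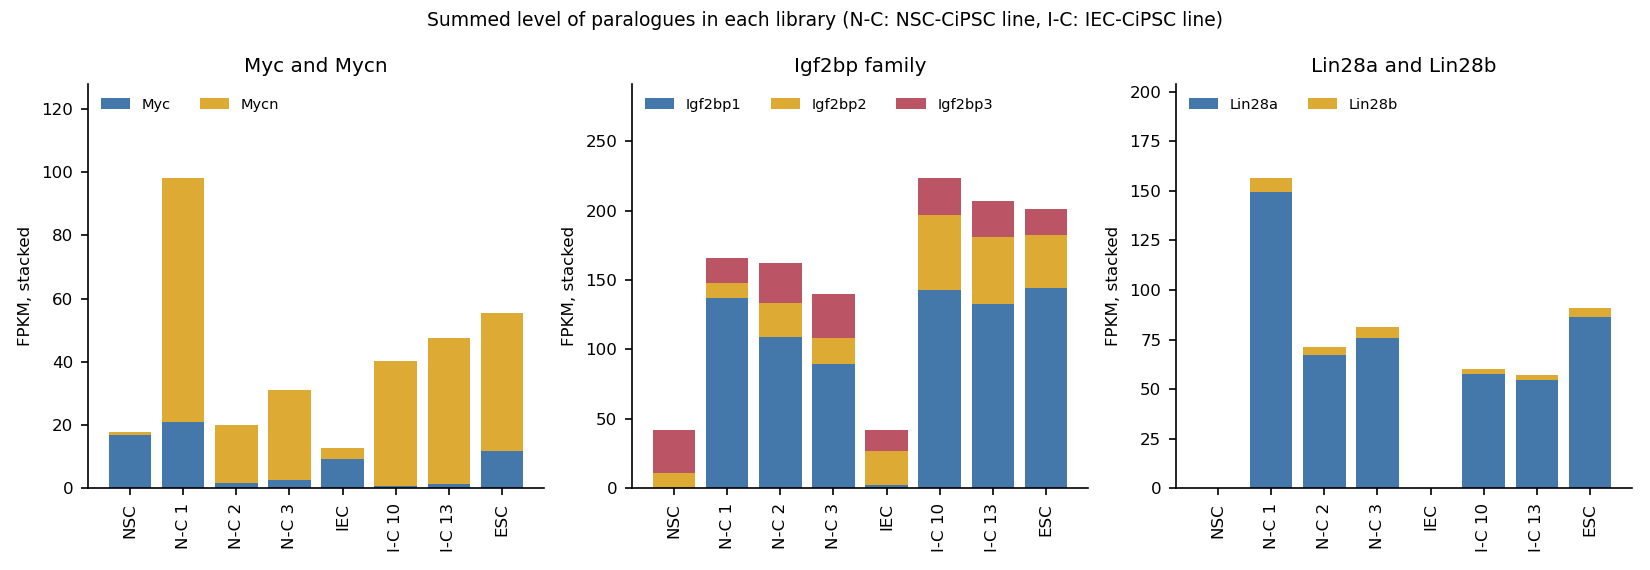
Stacked FPKM of paralogues in each library, for Myc with Mycn, the 3 Igf2bp genes, and Lin28a with Lin28b; N-C and I-C are the lines from NSC and IEC. Mycn and Igf2bp1 take the largest part in all 6 pluripotent libraries, and Myc, with Igf2bp3 in NSC and Igf2bp2 in IEC, in the fetal ones, while Lin28a makes up 93.3% or more of its pair in the pluripotent libraries.

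Set side by side by size alone, since each has 1 library, NSC and IEC differed by at least 2-fold on the log2(FPKM + 1) scale in 4 of 10 members, where 35.9% of all genes tested did (15.5% higher in NSC, 20.5% higher in IEC). Hmga1 was higher in NSC (log2 difference 1.10), and Mycn (-1.25), Igf2bp1 (-1.34) and Igf2bp2 (-1.15) were higher in IEC. Lin28a, Lin28b and Trim71 were low in both and differed by at most 0.08.

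Against ESC, 1 of 10 members was called in the lines from NSC, where 2.81% of all genes tested were called in either direction, 0.946% higher and 1.86% lower. That gene was Hmga1, higher by 1.22 ± 0.05 on the log2 scale (limma adjusted p = 0.00286). At an unadjusted p under 0.05 there were 2 of 10, where 22.1% of all genes tested were, the other being Hmga2, lower in the lines by a log2 change of -1.11 ± 0.36 (adjusted p = 0.191). In the lines from IEC limma called 0 of 10, beside 3.36% of all genes (1.63% higher, 1.73% lower), and 1 of 10 had an unadjusted p under 0.05, where 24.1% of all genes did. That was again Hmga1, higher by 0.95 ± 0.06 (adjusted p = 0.00681), which is under 2-fold. Without NSC-CiPSC line 1, Myc was lower in the lines from IEC than in ESC (-2.62, adjusted p = 0.0481).

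A missed call against the single ESC library leaves wide margins for some members and narrow ones for others. For Igf2bp1 the log2 difference in the lines from IEC was -0.07, with a 95% interval of -0.81 to 0.68, and for Trim71 in the lines from NSC it was -0.17 (-0.94 to 0.61). For Mycn in the lines from IEC it was -0.03, with an interval of -2.47 to 2.40. For Myc in the lines from NSC the interval ran from -4.90 to 2.64.

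Between lines of the 2 origins limma called 0 of 10 members, beside 4.32% of all genes (1.56% higher, 2.76% lower), and 3 of 10 had an unadjusted p under 0.05, near the 28.8% of all genes that did. Lin28b had the higher mean in the lines from NSC (log2 difference 0.87 ± 0.21, adjusted p = 0.0845), as did Hmga1 (0.27 ± 0.04, adjusted p = 0.0377, under 2-fold), and Igf2bp2 had the lower one (-1.50 ± 0.37, adjusted p = 0.0876). Without NSC-CiPSC line 1 the difference in Igf2bp2 was called (-1.19, adjusted p = 0.0493). The 2 routes were also compared with each other by the difference of their changes, where limma called 0 of 10 members beside 30.5% of all genes (17.6% higher, 12.9% lower). At an unadjusted p under 0.05 stood 1 of 10, Hmga1, where 48.5% of all genes did: its rise was smaller on the neural route by a log2 change of -0.83 ± 0.08 (adjusted p = 0.00266), which is under 2-fold.

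**Figure D4:**
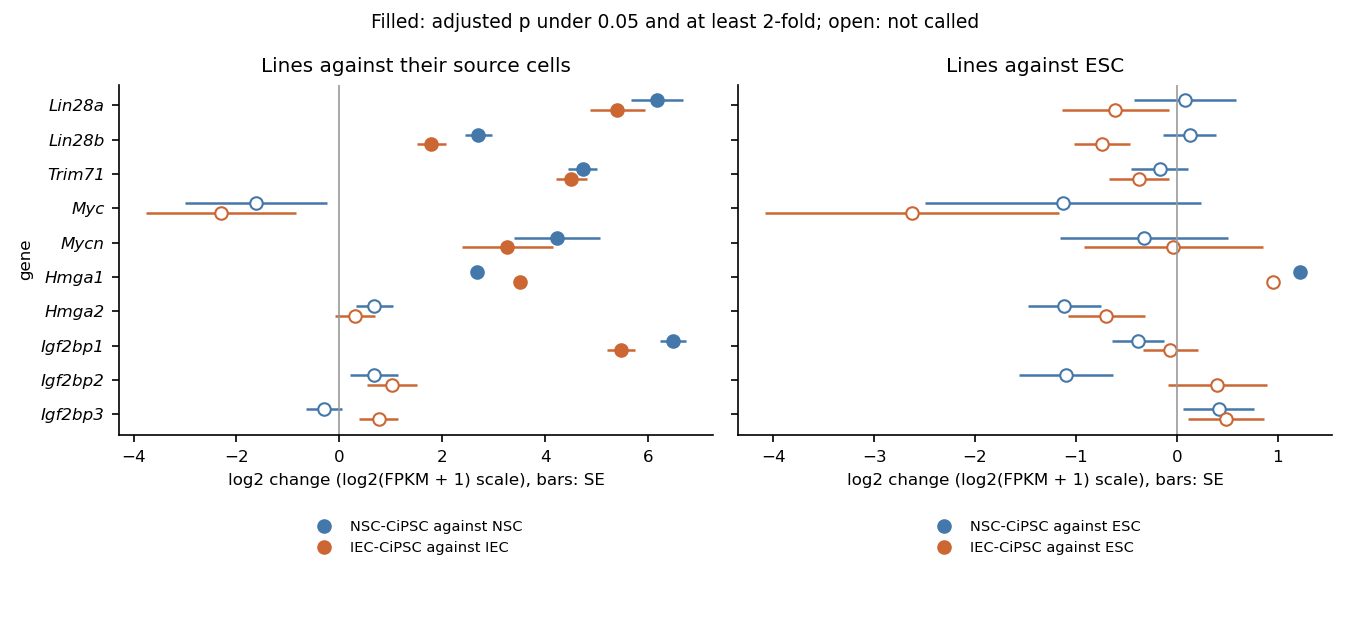
Log2 change of each gene, with its standard error, in the comparisons of the lines with their fetal source (left) and with ESC (right); filled points were called and open ones were not. The 6 genes called on both routes lie between 1.79 and 6.49, Lin28b on the neural route being set by the pseudocount since NSC is listed at 0, and against ESC only Hmga1 in the lines from NSC is filled.

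Members differed in how far they varied among pluripotent libraries. Over the 6 pluripotent libraries Myc had a log2 range of 3.66, larger than that of 99.0% of 12671 genes, and Igf2bp2 (2.19) and Mycn (2.00) also had wide ranges, where the median gene had 0.729. Trim71 (0.64) and Igf2bp1 (0.68) lay below that median. NSC-CiPSC line 1 was at least 2-fold above both other lines of its origin in 2 of 10 members, Myc and Mycn, where 1.01% of all genes tested were, and at least 2-fold below them in none, where 1.29% were. Lin28a missed that size narrowly (0.97). By any amount, line 1 was above both in 7 of 10, with a gap of only 0.03 in Hmga1, and below both in Hmga2, Igf2bp2 and Igf2bp3. The share of all genes tested that did so by any amount was not taken, so these counts are not a result about the members. This line was singled out after its values were seen. Marker sums differed among all 3 lines, and not only in line 1. The 8 pluripotency markers, all at 10 FPKM or more, summed to 5182 FPKM in line 1 and 6859 and 5933 in lines 2 and 3. In ESC they summed to 5152 FPKM. Smooth muscle markers summed to 95.8 FPKM in line 1 and to 60.02 and 50.3 in lines 2 and 3. Neural stem cell markers summed to 24.0, 21.9 and 15.6 FPKM in lines 1, 2 and 3. General epithelium markers summed to 251, 247 and 221 FPKM. Both of these sums were close in lines 1 and 2. The part of such differences in the levels of line 1 was not tested.

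Genes whose levels followed a member most closely over the 8 libraries are given as a description, with points that fall into 2 fetal and 6 pluripotent libraries. For Lin28a these were Pwwp2a, Eif3a and Dppa4 (Pearson r 0.998, 0.997 and 0.997 on the log2 scale), and for Igf2bp1 they were Dnajc21, Npm1 and Rcl1 (0.999, 0.998 and 0.998). Lin28b was followed by Caprin2, Tars2 and Tcf15 (0.997, 0.997 and 0.996). Mycn was followed by Rinl, Spns1 and Aatf (0.991, 0.989 and 0.987). Myc, with line 1 high, was followed less closely, by Sptlc1, Ovca2 and Uros (0.958, 0.949 and 0.942), and Hmga2 by Rpl3-ps1, Pfkp and Cog4 (0.921, 0.920 and 0.919). The search covered 9725 genes.

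Around the members, 15 genes that make or destroy let-7 were read. On the neural route 5 rose and 1 fell (median log2 change 0.66), where 18.3% of all genes rose and 20.7% fell (median 0.03). On the intestinal route 5 rose and 2 fell (0.62), where 19.1% of all genes rose and 26.2% fell (median -0.03). In either direction the share of the list called was near that of all genes on both routes (39.0% and 45.3%). Drosha, the nuclease that cuts primary microRNAs, stood at 22.8 FPKM in NSC and 71.6 ± 17.3 (SD, n = 3) in its lines, and at 15.2 in IEC and 47.3 ± 1.38 (SD, n = 2) in its lines. It rose by 1.58 ± 0.27 (adjusted p = 0.0109) and 1.57 ± 0.29 (adjusted p = 0.0118). Tarbp2, a Dicer partner, rose by 1.53 and 1.16, and Prkra, the other partner, fell by 1.56 and 1.46 (adjusted p = 0.0373 and 0.0486). Hnrnpa1, known to hold back let-7a processing, rose by 1.07 and 1.60. Dicer1 itself, with changes of 0.66 and 0.68, was not called.

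Of 24 further let-7 target genes, 18 had a seed match in the 3′ UTR and 22 were tested. On the neural route 8 rose and 2 fell (median 0.14), beside 18.3% and 20.7% of all genes. On the intestinal route 5 rose and 5 fell (0.56), beside 19.1% and 26.2%, so the share called there was near that of all genes. Arid3b, a DNA-binding protein, rose by 3.62 ± 0.15 and 2.58 ± 0.16, the orphan nuclear receptor Nr6a1 by 3.50 ± 0.31 and 2.31 ± 0.33, and the nuclease and helicase Dna2 by 2.06 ± 0.11 and 2.86 ± 0.12 (all adjusted p at most 0.00576). Cyclin D2 went the other way: Ccnd2 stood at 552 FPKM in NSC and 1.06 ± 0.352 (SD, n = 3) in its lines, at 56.7 in IEC and 2.67 ± 0.434 (SD, n = 2) in its lines, and at 1.55 in ESC. It fell by 8.08 ± 0.25 (adjusted p = 0.000142) and 3.98 ± 0.27 (adjusted p = 0.000638).

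Genes known to be driven by MYC rose in most cases on both routes, 18 of 24 on the neural and 23 of 24 on the intestinal one, and none fell, where 18.3% and 19.1% of all genes rose and 20.7% and 26.2% fell. The medians were 1.88 and 2.24, against 0.03 and -0.03 over all genes. Nop56, a core protein of ribosomal RNA modification, stood at 43.0 FPKM in NSC and 379 ± 115 (SD, n = 3) in its lines, and at 36.5 in IEC and 258 ± 31.8 (SD, n = 2) in its lines. Its rise was 3.07 ± 0.36 (adjusted p = 0.00376) and 2.78 ± 0.38 (adjusted p = 0.00510). Npm1, a nucleolar chaperone, rose by 2.80 and 2.45, Ppan, a ribosome assembly factor, by 2.95 and 2.24, and Odc1, the first enzyme of polyamine synthesis, by 1.90 and 3.11. These genes rose on routes where Mycn rose and Myc was not called. Whether Mycn or Myc had a part in the rises was not tested. A list of the wider MYC-MAX network (11 genes, Mycl and Mlx among them) had 1 rise and 2 falls on each route. This stands beside 39.0% and 45.3% of all genes called in either direction. Mga rose by 1.27 and 1.85, and Mxd4, a repressor that competes for MAX, changed by -5.07 ± 0.13 and -4.58 ± 0.13, both falls called.

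IGF signalling genes, whose mRNAs the Igf2bp proteins bind in part, fell in 7 of 12 cases on the neural route, where 2 rose (median -2.17), and in 9 of 12 on the intestinal route, where none rose (-2.80). Of all genes, 20.7% and 26.2% fell and 18.3% and 19.1% rose. The imprinted growth factor gene Igf2 stood at 0.633 FPKM in NSC and 4.80 ± 1.91 (SD, n = 3) in its lines, but at 1612 in IEC and 3.40 ± 0.436 (SD, n = 2) in its lines, with 0.485 in ESC. It rose by 1.78 ± 0.41 (adjusted p = 0.0239) on the neural route and fell by 8.52 ± 0.43 (adjusted p = 0.000290) on the intestinal one. H19, the neighbouring imprinted RNA, rose by 3.73 ± 0.23 and fell by 8.57 ± 0.24 on the same routes, and stood at 6329.7 FPKM in IEC. For both genes the difference between the routes was called (10.3 and 12.3 on the log2 scale, adjusted p = 0.000639 and 5.69e-05). Igfbp3 (-5.60 and -6.38) and Igfbp5 (-3.62 and -7.81), which bind IGFs outside the cell, fell on both routes. The falls from IEC go with falls of all 8 mesenchyme markers there. All 6 markers each of smooth muscle, leukocytes, liver and pancreas fell there too. The part of any of those cells in the falls of IGF signalling genes was not tested. High Igf2 in IEC thus stood beside Igf2bp1 at 2.13 FPKM, Igf2bp2 at 24.6 and Igf2bp3 at 15.2.

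**Figure D5:**
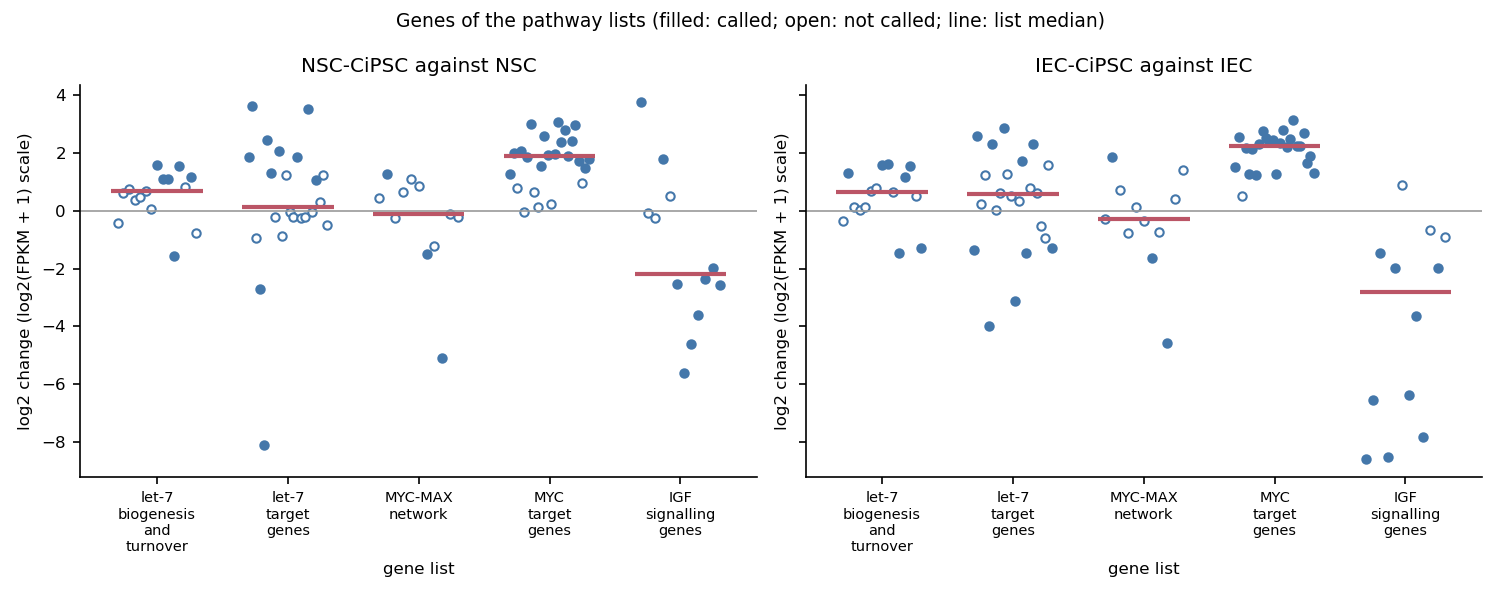
Log2 change of each gene of the 5 pathway lists on the neural (left) and intestinal (right) route; filled points were called and the line is the list's median. MYC target genes lie mostly above 0 with medians of 1.88 and 2.24, and IGF signalling genes mostly below, with medians of -2.17 and -2.80.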

How the data were processed

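Per the submitters' processing notes, the authors used TopHat, Cufflinks and the mm10 build, and the FPKM values they deposited were used as they stand. Not given in the sources used here are tool versions, annotation release and strand handling. The labels name the RNeasy Plus Mini Kit for RNA and NEBNext Ultra for libraries. Each file gives FPKM, a status and a 95% interval within the library for 39009 entries. Entries marked other than OK in any library (447) were left out. Fragment numbers implied by an interval were computed as if it held counting error only. They may be too low where it holds more. Lin28a gave 7.93 at 0.276 FPKM in NSC but 1.01 at 0.349 FPKM in IEC. Depth was made from such numbers (entries on single transcripts of at least 3000 bases, at most 60 fragments, within 0.02 of a whole number). Both are estimates and leave out variation between libraries.

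Genes with at least 1 FPKM in at least 1 library, 17011 in all, were tested on log2(FPKM + 1) with limma 3.58.1 in R 4.3.3: 1 mean for each of 5 groups, all 8 libraries in 1 fit, empirical Bayes with a trend, 3 residual and 1.10 prior degrees of freedom, Benjamini-Hochberg adjustment over all genes tested. NSC, IEC and ESC, with 1 library each, were assumed to vary like the lines. Calls needed an adjusted p under 0.05 and 2-fold. In simulated data with 100 genes changed by each size, the fit recovered 79% of 4-fold and 93% of 16-fold changes for NSC-CiPSC against NSC and 83% and 96% for IEC-CiPSC against IEC, with 3 and 7 false calls. The simulation gave the single libraries the same normal noise as the lines, so it cannot test that assumption. It changed only genes above a minimum mean level, and far fewer genes than were called in the data.

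Members are the 10 given genes. From each pathway list the text names up to 4 genes with the largest mean absolute change over both routes, called in at least 1 and reaching 5 FPKM, and Dicer1 is named beside them after its value was seen. Marker lists are given by counts and sums. 1 result was left out and is not reported here. For 6 members the 3 genes most like them in level are named, out of those reaching 10 FPKM. The members and lists were chosen with earlier results of these data known. Seed matches were searched in GENCODE M21 transcripts (GRCm38), and microRNA sequences are from RefSeq. Python 3.11.15 with NumPy 2.4.6, pandas 2.3.3 and matplotlib 3.10.9 was used for the rest. Alternatives changed the pseudocount, filter, scaling, moderation, libraries in the fit, thresholds and each line left out.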

Additional observations from a re-analysis of the deposited data

Results flagged for a closer look

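Hmga1 rose on both routes, but the size of the rise differed between them, which is why it is listed: the neural change minus the intestinal one was -0.83 ± 0.08 on the log2 scale (limma adjusted p = 0.00266). The level was 111 FPKM in NSC against 51.3 in IEC, and 712 ± 10.9 (SD, n = 3) against 592 ± 6.75 (SD, n = 2) in their lines. On the log2 scale Hmga1 differed by 1.10 between NSC and IEC, with 1 library each, and by 0.27 between their lines. The SE and p rest on the spread between lines only, and IEC is the mixture described above. The part of that mixture, or of fragments that align to several places, in the difference between routes was not tested.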

How the results depend on the processing

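Of 1080 member values under the alternatives, 1050 kept their direction and their side of the threshold, 8 lost a call, 12 gained one and 10 changed sign, none of these 10 called. The 6 rises of the neural route were called under every alternative run except Mycn at an adjusted p under 0.01 (0.0159). Sign changes under another scaling were Trim71 (-0.17) and Hmga2 (-0.18) in the difference between routes with quantile normalization, and Lin28a against ESC (-0.048, lines from NSC) with the sum taken without mitochondrial transcripts. Without NSC-CiPSC line 1, 4 values changed sign, given with their range over lines left out: Lin28a (-0.27 to 0.30) and Lin28b (-0.023 to 0.27) against ESC, Igf2bp3 between origins (-0.23 to 0.17) and Myc between routes (-0.28 to 1.27). So did Mycn without line 2 (-0.89 to 0.11 against ESC, -0.86 to 0.14 between origins) and, in the lines from IEC against ESC, without line 10 (-0.14 to 0.074). These causes were not tested. Scalings moved the median of all genes on the intestinal route to 0.15, -0.16 and -0.14 and between routes to -0.14 and 0.13, and the calls of the 6 rising genes did not change with them.

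The number of members called became 1 for the difference between routes with a pseudocount of 0.1 (Igf2bp1, 2.39, adjusted p = 0.0157), 1 between origins with at least 1 FPKM in 2 libraries (Igf2bp2, adjusted p = 0.0436), and, with no fold minimum, 1 each (Hmga1) in the lines from IEC against ESC, between origins and between routes. In fits of only the groups compared, Myc (adjusted p = 0.0424) and Igf2bp2 (0.0284) were called on the intestinal route. Leaving out 1 line at a time gave 6 to 7 and 5 to 8 members on the neural and intestinal route, 1 for NSC-CiPSC against ESC, 0 to 1 for IEC-CiPSC against ESC and between origins, and 0 between routes.

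All genes called numbered 6639 (neural), 7714 (intestinal), 478 and 572 (lines from NSC and from IEC against ESC), 735 (between origins) and 5191 (between routes). With a pseudocount of 5 they were 4109, 4780, 257, 326, 325 and 3407. At an adjusted p under 0.01 the last 4 were 175, 154, 162 and 3337. With no fold minimum they were 738 for NSC-CiPSC against ESC and 1622 between origins, and in fits of only the groups compared 202 and 123 against ESC. Leaving out 1 line gave 5959 to 6865, 6554 to 8007, 187 to 720, 153 to 890, 99 to 789 and 3743 to 5697. No paired analysis was possible because the groups share no replicate numbers in the labels.

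The single NSC, IEC and ESC libraries and 3 residual degrees of freedom limit every p-value. Levels under 1 FPKM rest on few fragments.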

Other observations

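Genes that overlap let-7 hairpins in the annotation were read for any trace of let-7 precursors, a choice made with their values in view. The RNA 2810055G20Rik, which overlaps the hairpin of let-7c-1, stood at 1.55 FPKM in NSC and 4.95 in IEC and was listed at 0 in all 6 pluripotent libraries. Wdr82, a protein-coding gene that overlaps let-7g, stood at 45.8 FPKM in NSC, 42.0, 30.0 and 32.6 in its lines, 27.3 in IEC, 32.2 and 34.0 in its lines and 46.2 in ESC, and was not called (adjusted p = 0.176 and 0.346 in limma). Huwe1, a ubiquitin ligase gene that holds the hairpins of let-7f-2 and miR-98, rose by 1.35 ± 0.11 (adjusted p = 0.00143) and 1.78 ± 0.12 (adjusted p = 0.000585). The level of a host gene is not the level of the microRNA, which these libraries did not measure.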
